A study of Mus musculus with 52 samples.

Results

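The genes described here encode the enzymes of glycolysis, the pentose phosphate pathway and the tricarboxylic acid (TCA) cycle, with the regulators that set entry into them. They were chosen by name, and all 47 were found among the 46071 genes of the count table. They comprise 8 genes of hexose phosphorylation and commitment, 10 of lower glycolysis and lactate, 7 of the pentose phosphate pathway, 8 of pyruvate entry and 14 of the TCA cycle. The animals were male mice of the inbred strain C57BL/6J, aged 3 months, studied in a 3 h clamp in which glucose is infused to keep the blood level steady. They received saline (basal), insulin at 4 mU/kg/min (low) or insulin at 12 mU/kg/min (high). The nucleus accumbens, a reward centre of the striatum, gave 6 libraries per infusion, as did the hippocampus, a memory centre, and the hypothalamus, a centre of energy balance, gave 5 basal, 6 low and 5 high libraries.

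Glycolysis splits glucose into pyruvate, and hexokinase and phosphofructokinase are its committing steps. Pyruvate is reduced to lactate or enters mitochondria through the pyruvate dehydrogenase complex to feed the TCA cycle, while the pentose phosphate pathway branches off at glucose 6-phosphate to make NADPH and ribose. The adult brain runs mainly on glucose; astrocytes are known for active glycolysis and lactate release, and neurons for oxidation.

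Total counts per library ran from 2453412 to 8279612, with a median of 4654641.5, and the 47 genes took 1.015% of all counts. The lowest count of any of them in a single library was 13, for Hk2. Levels are given as CPM, counts scaled by library size with TMM normalisation, or as FPKM, which also divides by gene length. The labels tie no library to its own animal, so p-values measure the spread between libraries, which may be technical. In 8 libraries expression leaned towards GC-rich transcripts, with a Spearman correlation above 0.4 across genes between transcript GC content and the library's deviation from its region's mean. These were 3 of the 5 basal hypothalamic libraries, 1 library of each infusion in the hippocampus, and 1 low and 1 high library of the nucleus accumbens. Apart from basal library 5 of the hypothalamus, all came from the lowest of 3 ranges of neighbouring tag numbers in the sample titles. Among hypothalamic libraries, the middle range held no basal one and the lowest range no high one. The lean, the tag range and the infusion therefore cannot be fully told apart there. In 3 low and 2 high hypothalamic libraries at least 1 of 5 hypothalamic peptide genes was below 1 CPM. The summed level of 6 hypothalamic markers was 46.6 to 1681 CPM in the hypothalamus and 0.222 to 3.28 CPM in the hippocampus. In the nucleus accumbens it was 0.876 to 45.97 CPM, which comes close to the lowest hypothalamic library. The summed level of 6 markers of the nucleus accumbens was 634 to 1603 CPM there and 29.5 to 223 CPM elsewhere. The 5 hippocampal markers did not separate it from the nucleus accumbens (415 to 931 and 413 to 840.1 CPM), and choroid plexus markers ran from 56.3 to 6061 CPM among hippocampal libraries. Markers of cortical or hippocampal excitatory neurons ran from 46.9 to 856 CPM among nucleus accumbens libraries. Among hippocampal libraries they ran from 756 to 1796 CPM.

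Promoters are shown for Gpi1, the only one of the genes that edgeR called between insulin and saline, and for Hk2 and Pfkl, which varied most between regions. Gpi1, at 34201330 to 34230336 on chromosome 7, makes glucose-6-phosphate isomerase; Hk2, at 82725025 to 82774454 on chromosome 6, is a hexokinase known for its regulation by insulin in muscle and fat; and Pfkl, at 77986947 to 78010083 on chromosome 10, is the liver-type phosphofructokinase (GENCODE M21, GRCm38, all on the minus strand). Each sequence is the 250 bases before the RefSeq start (GRCm38.p6), 5′ to 3′ on the gene's strand, with capitals for ACGTG or its reverse complement CACGT, the core of the site bound by hypoxia-inducible factors. The windows are chr7:34230337-34230586 (Gpi1), chr6:82774455-82774704 (Hk2), chr10:78009808-78010057 (Pfkl), all on the minus strand. The RefSeq start of Pfkl lies 276 bases downstream of the GENCODE start, so its window is inside the gene as GENCODE places it.
Gpi1: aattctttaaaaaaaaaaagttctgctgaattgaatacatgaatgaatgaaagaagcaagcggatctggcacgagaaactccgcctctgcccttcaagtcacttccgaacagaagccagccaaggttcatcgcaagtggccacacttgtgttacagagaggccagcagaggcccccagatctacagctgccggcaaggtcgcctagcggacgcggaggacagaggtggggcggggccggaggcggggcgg
Hk2: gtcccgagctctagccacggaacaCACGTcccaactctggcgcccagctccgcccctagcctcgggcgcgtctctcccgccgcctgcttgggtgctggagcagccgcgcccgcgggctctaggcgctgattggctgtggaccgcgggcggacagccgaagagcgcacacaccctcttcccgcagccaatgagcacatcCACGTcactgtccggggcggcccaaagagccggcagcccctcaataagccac
Pfkl: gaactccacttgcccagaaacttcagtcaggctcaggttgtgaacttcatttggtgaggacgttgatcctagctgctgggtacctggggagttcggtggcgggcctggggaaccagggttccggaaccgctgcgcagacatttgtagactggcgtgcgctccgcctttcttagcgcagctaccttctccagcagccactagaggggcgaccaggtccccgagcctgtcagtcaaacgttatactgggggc
The Hk2 window held 2 matches to this form and the others 0. Searched on both strands, 25 of the 69 RefSeq windows of 46 of these genes (36.2%) held the motif, against 16.6% of all 32851 windows of this length. The 2 sets of windows were not matched for base composition, and the difference was not tested. A match describes letters and is not a bound site.

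Most of the 47 genes stayed within a narrow range. The median span of the 3 region means was 0.254 on the log2 scale, against median spans over the 3 infusions of 0.15 (nucleus accumbens), 0.258 (hypothalamus) and 0.137 (hippocampus), with a median SD of 0.263 between libraries of a group. The span over regions exceeded every infusion span for 23 of the 47 genes. It was largest for Pfkl (1.21), Hk2 (1.04), Pdk3 (0.98) and Idh1 (0.87), and smallest for Pkm (0.04), the pyruvate kinase.

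**Figure D1:**
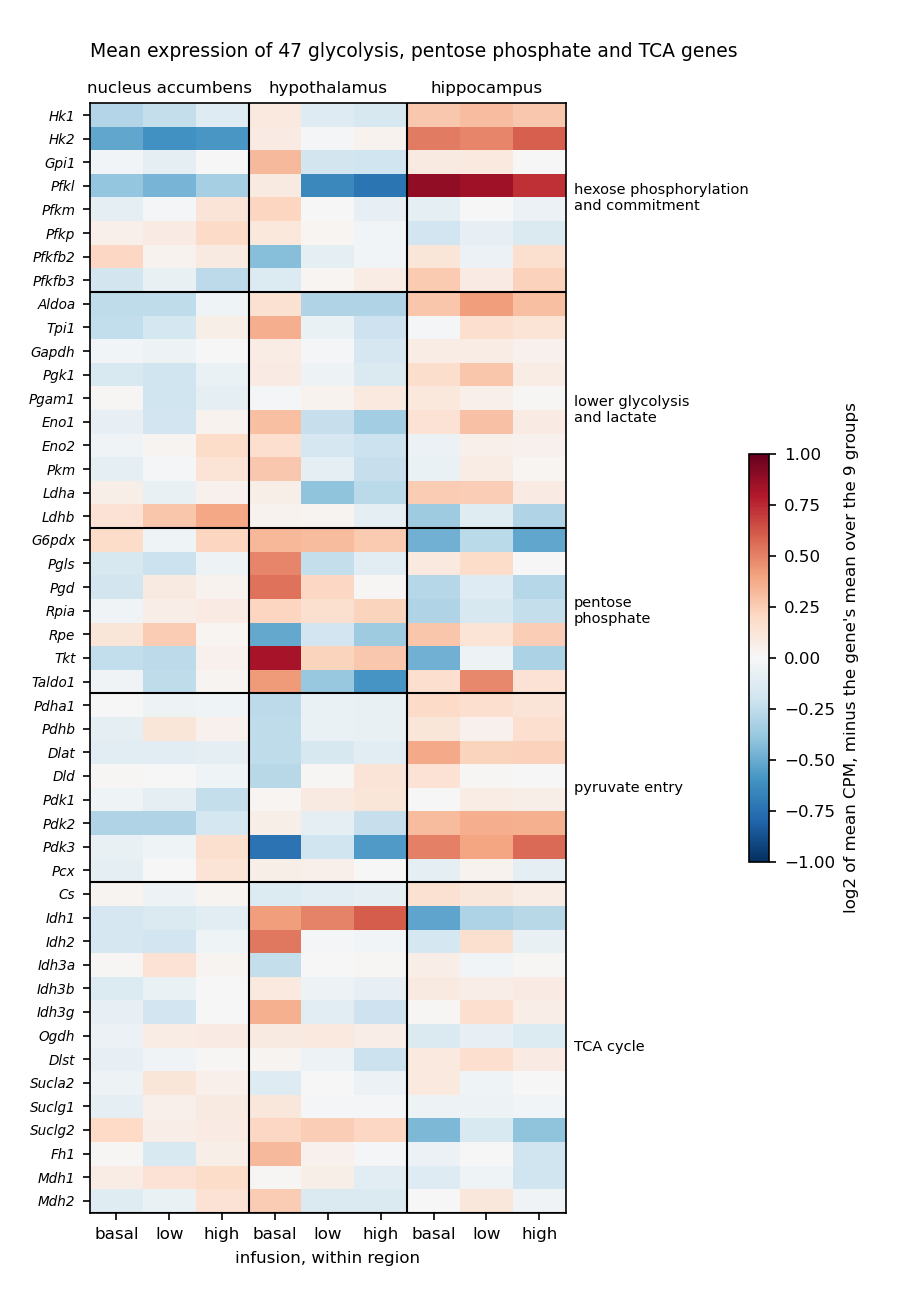
Mean expression of each of the 47 genes (rows, by role) in the 9 groups (columns, by region and infusion), as the log2 of the group's mean CPM minus that gene's mean over the groups. Pfkl and Hk2 are highest in the 3 hippocampal columns and Idh1 in the 3 hypothalamic ones.

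Levels per unit of length spanned a wide range. In the hippocampus Aldoa, the aldolase that splits fructose 1,6-bisphosphate, had the highest FPKM at 431 ± 121 (SD, n = 18 libraries), and it ranked 1 there with the union of exons and with the principal transcript as the length. Mdh1, the cytosolic malate dehydrogenase, had 278 ± 50.2 FPKM and Ldhb, the lactate dehydrogenase subunit that favours pyruvate, 264 ± 56.4 FPKM. In each region the lowest 3 under both lengths were Hk2, Suclg2, the GTP-forming succinyl-CoA synthetase subunit, and Rpia, a pentose isomerase; hippocampal Hk2 had 2.31 ± 0.432 FPKM and Hk1, the main brain hexokinase, 44.6 ± 7.98 FPKM. The order of the rest depends on the length used: Gapdh has 4133 bases of exons but a principal transcript of 1420. Principal lengths were tried after the data were seen.

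The first comparison asked where each enzyme is expressed more, within each infusion, in 1 fit of all 52 libraries. In basal mice 20 of the 47 genes differed between hypothalamus and hippocampus at an adjusted p under 0.05 (edgeR's quasi-likelihood test, Benjamini-Hochberg over 14985 genes), 9 higher and 11 lower; of all genes 46% were called, 24.4% higher and 21.6% lower. Between nucleus accumbens and hippocampus 12 were called, 4 higher and 8 lower, against 29.2% of all genes (14.7% and 14.5%). Between nucleus accumbens and hypothalamus 9 were called, 3 higher and 6 lower, against 32.1% (14.7% and 17.3%). The shares of the 47, 42.6%, 25.5% and 19.1%, were no higher than those of all genes. At the low rate 12, 9 and 2 were called in the same 3 contrasts (40.9%, 27.9% and 20.6% of all genes), and at the high rate 14, 12 and 5 (40.1%, 27% and 18.9%). In bulk tissue, fewer cells of a type and less RNA per cell cannot be told apart. In the basal hippocampus summed oligodendrocyte markers ran from 2497 to 4674 CPM and neuronal ones from 4638 to 6191 CPM. In the basal hypothalamus they ran from 4611 to 8416 CPM and 2795 to 3483 CPM. In the basal nucleus accumbens they ran from 4410 to 7027 CPM and 3768 to 5572 CPM. Summed astrocyte markers ran from 2058 to 3349 CPM in the basal hypothalamus. Their range was 3142 to 5557 CPM in the basal hippocampus and 3894 to 4915 CPM in the basal nucleus accumbens. The part of these differences in the region calls was not tested. Without the GC-leaning libraries, 8 genes were called between hypothalamus and hippocampus (Idh1, Rpe, Suclg2, Dlat, Pfkl, Cs, Tkt and Pdk3) and 2 between nucleus accumbens and hypothalamus (Idh1 and Hk2). Only 2 basal hypothalamic libraries were then left, and the shares of all genes called are not given here. Between nucleus accumbens and hippocampus the same 12 genes were called. Of the 47, 27 lay above 0 for hypothalamus minus hippocampus with all libraries and 15 without the GC-leaning ones. For nucleus accumbens minus hypothalamus these counts were 14 and 31. With runs of neighbouring tag numbers in the sample titles as a batch term, 17 of the 20 calls between hypothalamus and hippocampus were kept (not Ldhb, Ogdh and Pfkfb3). Between nucleus accumbens and hippocampus 12 of 12 were kept, and between nucleus accumbens and hypothalamus 6 of 9 (not Idh2, Pgd and Tpi1). In the same contrasts 3, 2 and 1 other genes were called.

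Some genes were called in the same direction under all 3 infusions, which use separate libraries. Between hypothalamus and hippocampus these were Idh1, G6pdx and Suclg2 (higher) and Pfkl, Pdk3, Hk2 and Dlat (lower), 7 of the 47 or 14.9%, against 26% of all genes. Between nucleus accumbens and hippocampus they were Ldhb (higher) and Pfkl, Hk2, Pdk2, Pdk3, Hk1 and Dlat (lower), also 14.9%, against 18.1% of all genes. Between nucleus accumbens and hypothalamus they were Hk2 and Idh1 (both lower), 4.26%, against 10.8% of all genes. In none of the 9 region contrasts was any of 18 genes called: Gpi1, Pfkm, Gapdh, Pgam1, Eno1, Eno2, Pkm, Pgls, Taldo1, Dld, Pcx, Idh3b, Idh3g, Sucla2, Suclg1, Fh1, Mdh1 and Mdh2.

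**Figure D2:**
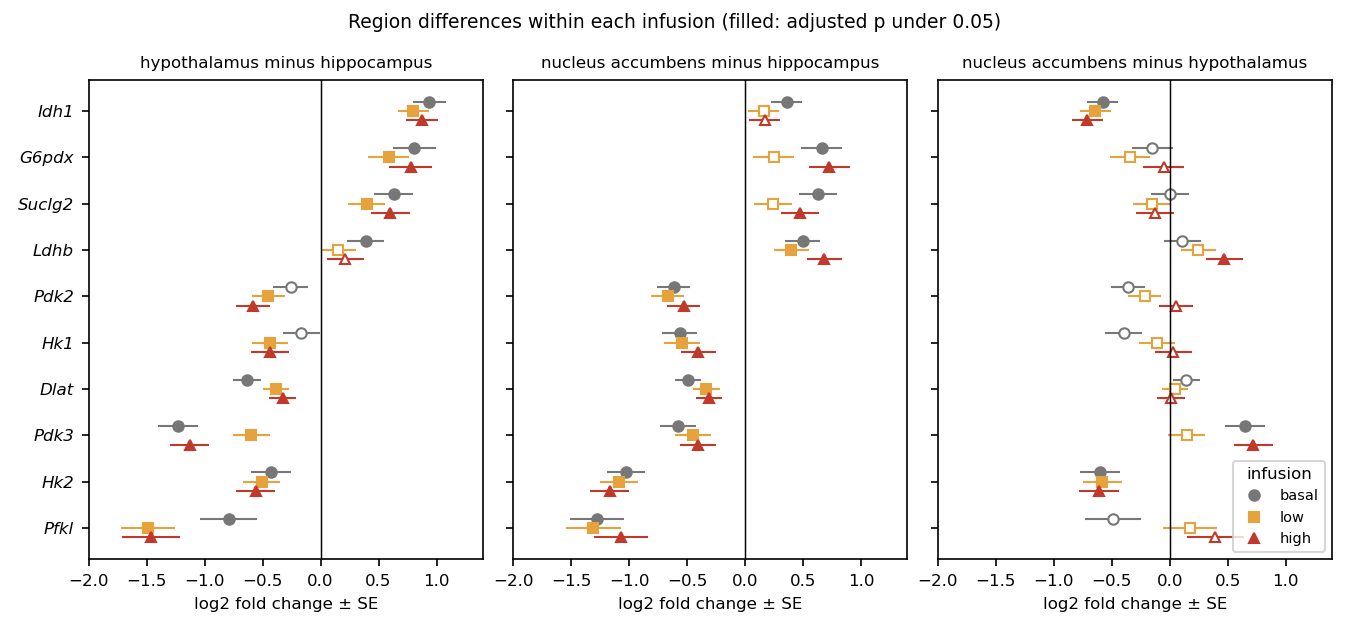
Log2 fold changes with standard errors (x axis) between regions for the 10 genes called in the same direction under all 3 infusions in at least 1 pair of regions; symbols give the infusion and are filled where the adjusted p is under 0.05. All 9 symbols of Hk2 are filled and lie below 0, as do the 6 of Pfkl against the hippocampus.

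Of the hexose phosphorylation genes, Hk2 was called in all 9 region contrasts and was graded over the regions. Basal Hk2 had a lowest, median and highest level of 4.77, 6.81 and 7.67 CPM in the nucleus accumbens and 11.4, 13.2 and 17.8 CPM in the hippocampus. The 5 basal hypothalamic libraries had 10.3, 11.8, 12.1, 10.6 and 5.63 CPM. The nucleus accumbens and hippocampus did not overlap, and 4 of the 5 hypothalamic libraries lay between the medians of the other regions. The log2 fold change of Hk2 was -1.03 (SE 0.17, adjusted p = 1.77e-06) for nucleus accumbens minus hippocampus, -0.43 (SE 0.17, adjusted p = 0.0351) for hypothalamus minus hippocampus and -0.60 (SE 0.17, adjusted p = 0.00705) for nucleus accumbens minus hypothalamus (edgeR's quasi-likelihood test). The call between hypothalamus and hippocampus was lost without basal library 5 of the hypothalamus (-0.28, adjusted p = 0.173) or basal library 2 or 3 of the hippocampus. All 3 contrasts of Hk2 were also called at the low rate (-1.09, -0.51 and -0.58) and the high rate (-1.17, -0.56 and -0.61). Hk2 averaged 6.62, 6.23 and 6.34 CPM in the nucleus accumbens, 10.1, 9.39 and 9.71 CPM in the hypothalamus and 13.6, 13.3 and 14.4 CPM in the hippocampus (basal, low, high; SDs 0.878 to 3.19 CPM).

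Pfkl was highest in the hippocampus. Its lowest, median and highest basal libraries had 86.2, 100.3 and 146 CPM in the nucleus accumbens and 165, 231 and 449 CPM in the hippocampus, and the hypothalamic ones had 169.8, 203, 98.2, 78.9 and 184 CPM. The nucleus accumbens lay wholly below the hippocampus, and the 3 GC-leaning hypothalamic libraries reached into the hippocampal range. The log2 fold change of Pfkl against the hippocampus was -1.28 (SE 0.23, adjusted p = 1.61e-05) in the nucleus accumbens and -0.79 (SE 0.24, adjusted p = 0.00628) in the hypothalamus, by edgeR's quasi-likelihood test. Under insulin every library of both regions lay below every hippocampal one, except 1 of the nucleus accumbens at the high rate, with log2 fold changes of -1.31 and -1.49 at the low and -1.07 and -1.46 at the high rate.

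Hk1 averaged 255, 266 and 286 CPM in the nucleus accumbens, 335, 286 and 279 CPM in the hypothalamus and 377, 387 and 378 CPM in the hippocampus (basal, low, high; SDs 26.1 to 76.6 CPM). Basal Hk1 was lower in the nucleus accumbens than in the hippocampus, by -0.56 (SE 0.15, adjusted p = 0.00324) on the log2 scale (edgeR's quasi-likelihood test), with 5 of 6 libraries below all hippocampal ones. Pfkfb3, which makes the phosphofructokinase activator fructose 2,6-bisphosphate, averaged 60.0, 64.7 and 56.7 CPM in the nucleus accumbens, 61.8, 69.0 and 71.7 CPM in the hypothalamus and 81.7, 72.0 and 79.9 CPM in the hippocampus (basal, low, high; SDs 2.48 to 19.3 CPM). It was lower than in the basal hippocampus in the nucleus accumbens (-0.44 (SE 0.15)) and in the hypothalamus (-0.41 (SE 0.15)). The second call was lost without basal library 1, 2 or 5 of the hypothalamus or 5 of the hippocampus, and with tag run as a batch term. Pfkfb2, a second enzyme of this kind, differed in basal mice by -0.55 (SE 0.16) for hypothalamus minus hippocampus and 0.63 (SE 0.16) for nucleus accumbens minus hypothalamus, and passed in no region contrast under insulin. Pfkp, the platelet-type phosphofructokinase, averaged 249.8, 256 and 276 CPM in the nucleus accumbens, 259, 245 and 236 CPM in the hypothalamus and 211, 228 and 219 CPM in the hippocampus (basal, low, high; SDs 20.6 to 48.3 CPM). Reads of Pfkfb2 and Pfkp may include some of Yod1 and Pitrm1, which overlap them on the opposite strand with 35.8% and 15.8% of their counts, as no source used here says whether strand was used in counting.

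Isozyme makeup was compared as the share of an isozyme in the summed FPKM of its family in the same library. In basal mice 13 of 36 region comparisons of shares passed (2-sided exact permutation test over libraries, Benjamini-Hochberg over the 36). Pfkl made up 9.46% ± 1.202 of phosphofructokinase in the nucleus accumbens (SD, n = 6), 10.4% ± 2.20 in the hypothalamus (n = 5) and 20.0% ± 4.19 in the hippocampus (n = 6). The hippocampal libraries, at 16.9% to 27.4%, all exceeded those of the other regions, of which the highest had 12.5% (exact permutation p = 0.00216, the smallest the design allows, adjusted 0.013, for both). With principal transcript lengths the means were 11.6%, 13.1% and 24.4%. Pfkm, the muscle type, was the largest part at 79.3%, 80.0% and 71.4%, and the share of Pfkp was 11.3% ± 0.993 in the nucleus accumbens, against 8.59% ± 0.958 in the hippocampus (exact permutation, adjusted p = 0.0195).

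Ldha, the lactate dehydrogenase subunit that favours lactate, made up 12.0% ± 1.42 of Ldha plus Ldhb in the nucleus accumbens (SD, n = 6), 13.2% ± 1.84 in the hypothalamus (n = 5) and 18.0% ± 1.82 in the hippocampus (n = 6). All libraries of the nucleus accumbens were below all hippocampal ones (exact permutation, adjusted p = 0.013), and the hypothalamic difference (exact permutation, adjusted p = 0.0213) was lost without any 1 of 5 of the 11 libraries compared. The share of Pdk3 among the 3 pyruvate dehydrogenase kinases was 10.9% ± 2.99 in the hypothalamus, against 19.9% ± 4.19 in the hippocampus (exact permutation, adjusted p = 0.0195), and was lost as a call without basal library 1 of the hypothalamus. The share of Suclg2 in Suclg2 plus Sucla2 was 4.95% ± 0.53 in the nucleus accumbens, against 2.93% ± 0.636 in the hippocampus, with no overlap (exact permutation, adjusted p = 0.013). By infusion 0 of 108 comparisons of shares passed (lowest exact permutation p = 0.00649, adjusted 0.701).

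**Figure D3:**
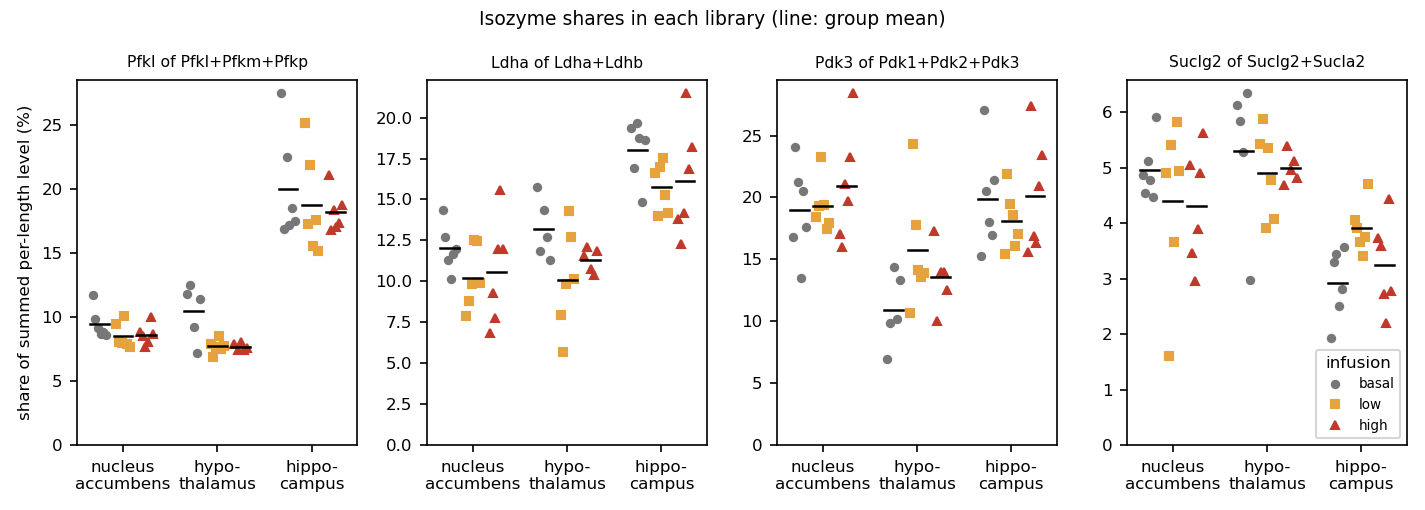
Share of an isozyme in the summed per-length level of its family (y axis, percent) in each library, by region (x axis) and infusion (symbols), with a line at each group mean. For Pfkl the hippocampal libraries stand above those of the other regions at each infusion.

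Of the 10 lower glycolysis genes, 1 was called between hypothalamus and hippocampus in basal mice, 2 between nucleus accumbens and hippocampus and 1 between nucleus accumbens and hypothalamus, where 46%, 29.2% and 32.1% of all genes were called. Basal Ldhb had 492, 528 and 651 CPM in the nucleus accumbens and 359, 375 and 442 CPM in the hippocampus (lowest, median, highest), without overlap. Its log2 fold change was 0.50 (SE 0.15, adjusted p = 0.00902) in basal mice (edgeR's quasi-likelihood test), 0.40 at the low and 0.68 at the high rate. The difference between hypothalamus and hippocampus, 0.39 (SE 0.16), was lost without any 1 of 6 basal libraries and with tag run as a batch term. Basal Aldoa was lower in the nucleus accumbens than in the hippocampus (-0.53 (SE 0.18)), a call lost without basal library 1 or 3 of the hippocampus or 2 of the nucleus accumbens. Tpi1, triose phosphate isomerase, was lower in the basal nucleus accumbens than in the hypothalamus (-0.61 (SE 0.24)). This turned to 0.20 without the GC-leaning libraries. The call was lost without any 1 of 6 basal libraries and with tag run as a batch term. Ldhb averaged 547, 599 and 647 CPM in the nucleus accumbens, 507, 506 and 467 CPM in the hypothalamus and 388, 455 and 403 CPM in the hippocampus (basal, low, high; SDs 33.0 to 156 CPM).

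Gapdh, which makes the NADH of glycolysis, averaged 567.9, 559.5 and 582 CPM in the nucleus accumbens, 610.4, 572 and 516 CPM in the hypothalamus and 610.4, 611 and 598 CPM in the hippocampus (basal, low, high; SDs 46.7 to 176 CPM). Eno2, the neuronal enolase, averaged 859, 895 and 997 CPM in the nucleus accumbens, 988, 781 and 757 CPM in the hypothalamus and 845, 912 and 906 CPM in the hippocampus (basal, low, high; SDs 67.5 to 256 CPM). Eno1, the enolase of most other cells, averaged 172, 159.5 and 187 CPM in the nucleus accumbens, 225, 155 and 143 CPM in the hypothalamus and 202, 223 and 192 CPM in the hippocampus (basal, low, high; SDs 33.5 to 107 CPM). None of these genes passed in a region contrast, nor did Pkm. Pkm averaged 901, 953 and 1059 CPM in the nucleus accumbens, 1157, 903 and 818 CPM in the hypothalamus and 919, 1009.8 and 975 CPM in the hippocampus (basal, low, high; SDs 86.5 to 364 CPM). Ldha averaged 157, 143 and 155 CPM in the nucleus accumbens, 157, 114 and 125 CPM in the hypothalamus and 179, 178 and 159.5 CPM in the hippocampus (basal, low, high; SDs 12.0 to 43.9 CPM); it was lower in the hypothalamus than in the hippocampus at the low (-0.64 (SE 0.14, adjusted p = 0.000104)) and the high rate (-0.35 (SE 0.14, adjusted p = 0.0438), edgeR's quasi-likelihood test), and did not pass in basal mice. Gapdh, Pgk1, Pgam1, Tpi1, Ldha and Eno1 have near-identical copies in the genome, so their levels are uncertain.

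Both NADPH-making genes of the pentose phosphate pathway, G6pdx and Pgd, were higher in the basal hypothalamus than in the hippocampus. G6pdx, which commits glucose 6-phosphate and makes NADPH, had 34.6, 34.8, 24.9, 24.7 and 35.6 CPM in the 5 basal hypothalamic libraries, against 13.2, 17.5 and 22.2 CPM in the hippocampus (lowest, median, highest). All 5 lay above the hippocampal range. On the log2 scale this was a difference of 0.81 (SE 0.18, adjusted p = 0.000277) by edgeR's quasi-likelihood test, and 0.59 and 0.78 at the low and high rates. For nucleus accumbens minus hippocampus it was 0.66 (SE 0.18) in basal mice. G6pdx averaged 28.0, 24.0 and 28.6 CPM in the nucleus accumbens, 30.9, 30.8 and 29.5 CPM in the hypothalamus and 17.7, 20.4 and 17.1 CPM in the hippocampus (basal, low, high; SDs 3.48 to 7.98 CPM). Ikbkg overlaps it on the opposite strand with 175% of its count, so part of these reads may come from Ikbkg.

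Tkt, the transketolase of the non-oxidative branch, had 172, 224, 107, 99.0 and 219 CPM in the basal hypothalamus and 46.2, 59.6 and 116 CPM in the hippocampus (lowest, median, highest). The 3 high hypothalamic values are the GC-leaning libraries. Tkt differed on the log2 scale by 1.31 (SE 0.26, adjusted p = 5.47e-05) for hypothalamus minus hippocampus and -1.08 (SE 0.26, adjusted p = 0.00157) for nucleus accumbens minus hypothalamus (edgeR's quasi-likelihood test); Tkt passed in no region contrast under insulin. Tkt averaged 78.2, 77.6 and 95.9 CPM in the nucleus accumbens, 164, 108 and 112 CPM in the hypothalamus and 66.6, 89.6 and 74.7 CPM in the hippocampus (basal, low, high; SDs 16.3 to 59.5 CPM). Pgd, the second NADPH-making enzyme, showed 0.84 (SE 0.21) and -0.73 (SE 0.20) in these basal contrasts, the second lost with tag run as a batch term. Pgd also passed in none under insulin. Neither basal difference of Pgd was called without the GC-leaning libraries. Rpe, ribulose-phosphate epimerase, was lower in the basal hypothalamus than in the hippocampus (-0.80 (SE 0.18)) and higher in the nucleus accumbens than in the hypothalamus (0.64 (SE 0.18)), but Kansl1l overlaps it on the opposite strand with 79.3% of its count. Rpia was higher in the basal hypothalamus than in the hippocampus (0.51 (SE 0.17)), except without basal library 5 of the hypothalamus (0.33, adjusted p = 0.122).

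Every pyruvate entry gene called against the basal hippocampus was lower than in it. These were 4 of the 8 in the hypothalamus and 3 in the nucleus accumbens, where 46% and 29.2% of all genes were called, 21.6% and 14.5% lower. Pdk3, a kinase that switches the pyruvate dehydrogenase complex off, had 9.28, 13.8, 14.6, 11.4 and 15.0 CPM in the basal hypothalamus, 15.0, 19.5 and 26.2 CPM in the nucleus accumbens and 24.5, 29.9 and 38.0 CPM in the hippocampus (lowest, median, highest for the last 2). The hypothalamus lay wholly below the hippocampus. Pdk3 differed on the log2 scale by -1.23 (SE 0.17, adjusted p = 3.98e-08) for hypothalamus minus hippocampus, -0.58 (SE 0.16, adjusted p = 0.00325) for nucleus accumbens minus hippocampus and 0.65 (SE 0.17, adjusted p = 0.00305) for nucleus accumbens minus hypothalamus, by edgeR's quasi-likelihood test. The first was -0.60 at the low and -1.13 at the high rate.

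Dlat, the acetyltransferase core of the complex, had 77.8, 84.5 and 98.6 CPM in the basal nucleus accumbens and 106, 115 and 149 CPM in the hippocampus (lowest, median, highest), and 71.0, 67.2, 86.8, 86.0 and 81.5 CPM in the hypothalamus. Neither region overlapped the hippocampus. The log2 fold changes against it were -0.49 (SE 0.11, adjusted p = 0.00051) and -0.64 (SE 0.12, adjusted p = 1.65e-05) for nucleus accumbens and hypothalamus (edgeR's quasi-likelihood test). Pdk2, a second such kinase, was lower in the nucleus accumbens than in the hippocampus in basal (-0.62 (SE 0.14)), low (-0.67) and high mice (-0.53), and averaged 84.9, 84.5 and 92.4 CPM in the nucleus accumbens, 109, 98.2 and 88.9 CPM in the hypothalamus and 130.2, 134 and 133 CPM in the hippocampus (basal, low, high; SDs 8.24 to 31.0 CPM). Pdha1 and Pdhb, the subunits of the decarboxylating enzyme, were lower in the basal hypothalamus than in the hippocampus (-0.45 (SE 0.13) and -0.38 (SE 0.12)) and passed in no contrast under insulin. Pdha1 averaged 142, 136 and 137 CPM in the nucleus accumbens, 118, 135 and 134 CPM in the hypothalamus and 161, 159 and 155 CPM in the hippocampus (basal, low, high; SDs 7.70 to 27.3 CPM). Pcx, which carboxylates pyruvate to oxaloacetate, averaged 89.8, 95.1 and 105 CPM in the nucleus accumbens, 99.2, 98.6 and 95.1 CPM in the hypothalamus and 89.6, 97.7 and 89.1 CPM in the hippocampus (basal, low, high; SDs 9.72 to 20.8 CPM) and passed in no region contrast.

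In the TCA group, Idh1 and Idh2 had the largest basal fold changes between hypothalamus and hippocampus. Idh1, the cytosolic enzyme that makes NADPH, had 50.5, 37.7, 53.6, 58.5 and 46.5 CPM in the basal hypothalamus, 30.5, 32.1 and 35.8 CPM in the nucleus accumbens and 22.7, 26.0 and 28.0 CPM in the hippocampus (lowest, median, highest for the last 2). The 3 regions did not overlap in basal mice, and under both rates every hypothalamic library lay above every library of the other regions. The log2 fold change of Idh1 was 0.94 (SE 0.14, adjusted p = 1.51e-07) for hypothalamus minus hippocampus and -0.58 (SE 0.14, adjusted p = 0.00107) for nucleus accumbens minus hypothalamus in basal mice (edgeR's quasi-likelihood test), 0.80 and -0.64 at the low rate, and 0.88 and -0.71 at the high rate. Between nucleus accumbens and hippocampus it was 0.36 (SE 0.13, adjusted p = 0.0357) in basal mice, a call lost without any 1 of 5 basal libraries, and did not pass under insulin. Idh2, the mitochondrial NADPH-making enzyme, showed 0.71 (SE 0.21) for hypothalamus minus hippocampus and -0.70 (SE 0.21) for nucleus accumbens minus hypothalamus in basal mice. The second was lost without basal library 5 of the hypothalamus and with tag run as a batch term. The 3 highest basal hypothalamic values of Idh2 were those of GC-leaning libraries. Neither difference was called without the GC-leaning libraries, which leaves 2 basal hypothalamic ones. Idh2 averaged 49.2, 48.3 and 53.7 CPM in the nucleus accumbens, 79.6, 54.7 and 54.2 CPM in the hypothalamus and 49.0, 61.9 and 52.6 CPM in the hippocampus (basal, low, high; SDs 5.51 to 28.6 CPM).

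Suclg2 had 10.8, 12.2 and 14.7 CPM in the basal nucleus accumbens and 4.93, 8.30 and 9.20 CPM in the hippocampus (lowest, median, highest), without overlap, and 13.3, 12.1, 12.5, 16.1 and 7.71 CPM in the hypothalamus. Its log2 fold changes against the hippocampus were 0.63 (SE 0.16, adjusted p = 0.00211) and 0.63 (SE 0.17, adjusted p = 0.00211) for nucleus accumbens and hypothalamus, by edgeR's quasi-likelihood test. Cs, citrate synthase, was lower in the basal hypothalamus than in the hippocampus (-0.29 (SE 0.09)), as was Idh3a, the catalytic subunit of the NAD-linked isocitrate dehydrogenase (-0.31 (SE 0.10)). The calls were lost without basal library 5 of the hypothalamus for Cs and library 2 for Idh3a. Cs averaged 262, 248 and 262 CPM in the nucleus accumbens, 234, 238 and 239 CPM in the hypothalamus and 286, 277 and 271 CPM in the hippocampus (basal, low, high; SDs 17.6 to 30.6 CPM). Ogdh, the first enzyme of the 2-oxoglutarate dehydrogenase complex, averaged 335, 366 and 368 CPM in the nucleus accumbens, 370.3, 372 and 365 CPM in the hypothalamus and 314, 328 and 316 CPM in the hippocampus (basal, low, high; SDs 17.8 to 52.1 CPM). Its basal difference of 0.24 (SE 0.10) between hypothalamus and hippocampus was lost without any 1 of 21 libraries and with tag run as a batch term.

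The second comparison asked whether insulin changed these genes within a region. In the hypothalamus at the low rate 1 of the 47 was called against basal, Gpi1 (lower), while 5.38% of the 14139 genes tested were (edgeR's quasi-likelihood test, Benjamini-Hochberg). Gpi1 had 288, 324 and 409.9 CPM in the low libraries (lowest, median, highest) and 300.1, 339, 331, 340.1 and 328 CPM in the high ones, against 461, 581, 378, 344 and 586 CPM in the basal ones. Below every basal library lay 5 of 6 low and 5 of 5 high libraries, and the 3 highest basal values were the GC-leaning libraries. The log2 fold change of Gpi1 was -0.49 (SE 0.14, adjusted p = 0.0454) for low minus basal and -0.51 (SE 0.14, adjusted p = 0.118) for high minus basal, the second not past the threshold (edgeR's quasi-likelihood test). Without the GC-leaning libraries, which leaves 2 basal ones, it was -0.11 and -0.12, and with the lean as a covariate -0.21 and -0.22, with no call. Leaving out 1 library at a time kept the low-rate call of Gpi1 in 3 of 16 fits, with log2 fold changes of -0.59 to -0.40. Those fits called 5 of the 47 genes (without low library 1), 6 (without basal library 3) and 9 (without basal library 4). The other 13 fits called 0. The shares of all genes called in each fit are not given here, so these counts cannot be read as particular to the 47. With runs or ranges of neighbouring tag numbers as a batch term the call was lost: the low-rate value was -0.36 (adjusted p = 0.215) and -0.41 (adjusted p = 0.16) by edgeR's quasi-likelihood test. Within 2 such ranges the difference was -0.34 (1 low and 2 basal libraries) and -0.43 (3 and 3), with no test.

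The next members by p at the low rate did not pass. Ldha had 83.3, 115 and 131 CPM (lowest, median, highest) in low and 149, 170.0, 136, 133 and 197 CPM in basal libraries, and its log2 fold change by edgeR's quasi-likelihood test was -0.45 (SE 0.13, adjusted p = 0.0502), and 6 of 6 low-rate libraries lay below the whole basal range. Pfkl showed -0.72 (SE 0.21, adjusted p = 0.0513), and 2 of 6 low-rate libraries lay below the whole basal range. On the other side were Pdk3, Idh3a and Pfkfb2. Pdk3 showed 0.55 (SE 0.20, adjusted p = 0.0948), and 5 of 6 low-rate libraries lay above the whole basal range, Idh3a 0.26 (SE 0.10, adjusted p = 0.113) and Pfkfb2 0.35 (SE 0.14, adjusted p = 0.114). Without the GC-leaning libraries these 5 values were -0.22, 0.01, 0.51, 0.09 and 0.08. DESeq2 called Gpi1, Ldha and Pfkl at the low rate and Gpi1 and Pfkl at the high rate. Its shares of all genes called are not given here.

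At the high rate 0 of the 47 were called in the hypothalamus, against 0.184% of all genes. Lower by p were Pfkl (-0.81 (SE 0.22, adjusted p = 0.107)), Gpi1 and Idh2 (-0.55 (SE 0.20, adjusted p = 0.149)), and higher were Pfkfb2 (0.42 (SE 0.15, adjusted p = 0.144)), Idh3a (0.27 (SE 0.11, adjusted p = 0.163)) and Dld, the lipoamide dehydrogenase (0.43 (SE 0.20, adjusted p = 0.196)), none past the threshold of edgeR's quasi-likelihood test. Pfkl had 68.9, 81.6, 87.0, 91.1 and 87.9 CPM in the high libraries, against 169.8, 203, 98.2, 78.9 and 184 CPM in the basal ones, whose 3 highest were the GC-leaning ones. At an unadjusted p under 0.05 stood 11 of the 47 at the low rate (23.4%, against 29.9% of all genes) and 17 at the high rate (36.2%, against 24.1%). At the high rate 14 of the 17 were lower (29.8% of the 47, against 13% of all genes) and 3 higher (6.38%, against 11.1%). Without the GC-leaning libraries the total was 0, with the lean as a covariate 0 and with tag run as a batch term 2. The shares of all genes in these 3 fits are not given here. Between the rates 0 were called (0% of all genes, 0 at an unadjusted p under 0.05 against 1.41% of all genes, and 0 with DESeq2); by p the first were Ldha (0.13 (SE 0.13)), Idh1 (0.10 (SE 0.12)) and Dld (0.11 (SE 0.19)), and Pdk3 (-0.37 (SE 0.20)), Dlst (-0.17 (SE 0.12)) and Gapdh (-0.16 (SE 0.14)).

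**Figure D4:**
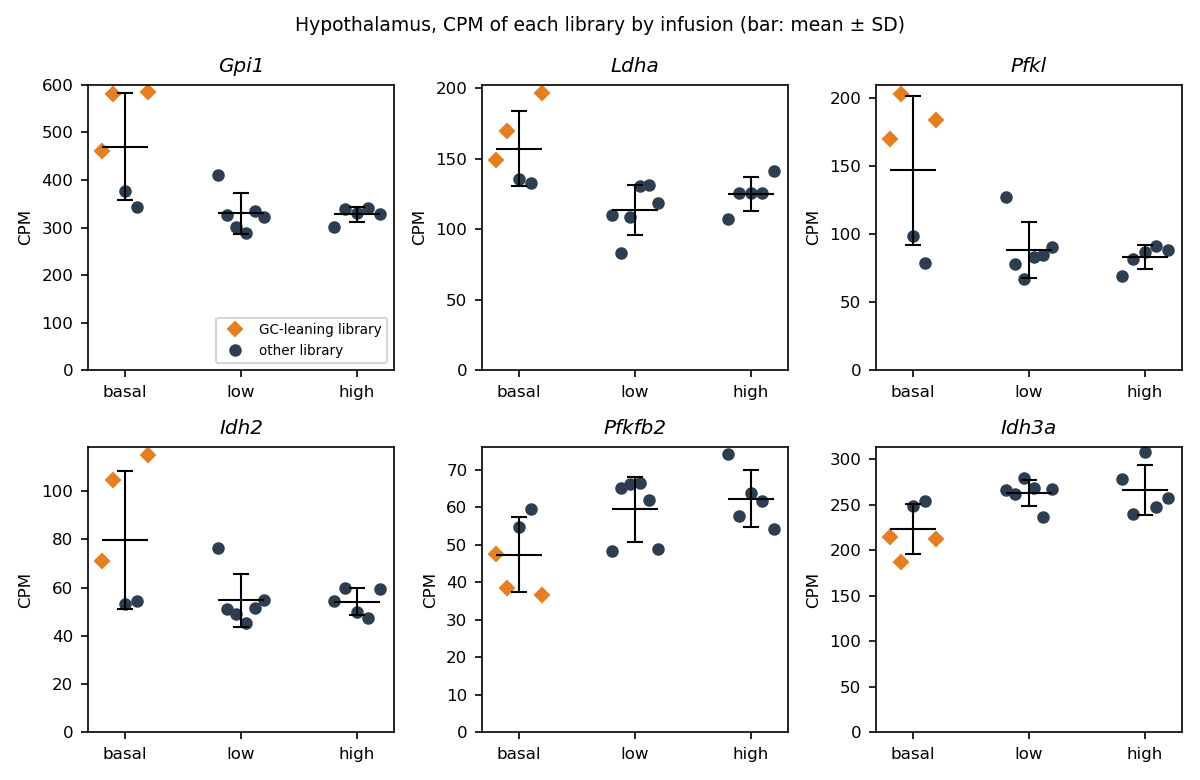
CPM (y axis) of 6 genes in each hypothalamic library by infusion (x axis), with bars at the mean ± SD; diamonds are the GC-leaning libraries. The 3 highest basal values of Gpi1, Pfkl and Idh2 are diamonds, and no insulin library is one.

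By role, the hypothalamic fold changes at the low rate were as follows, with 1 gene past the test. Hexose phosphorylation had 2 above and 6 below 0 (median -0.15) and lower glycolysis 2 above and 8 below 0 (median -0.33). The pentose phosphate pathway had 2 above and 5 below 0 (median -0.33), pyruvate entry 7 above and 1 below 0 (median 0.16) and the TCA cycle 7 above and 7 below 0 (median -0.02). The median of all 47 was -0.07 at the low and -0.12 at the high rate, against -0.02 and -0.03 over all genes. These values moved with GC content: across the 47 genes Pearson's r between the log2 fold change and transcript GC was -0.68 at each rate (Spearman's rho -0.71), where all points share the same libraries. The 24 genes at or above 50.5% GC had medians of -0.36 and -0.38 at the low and high rates, and the 23 below it 0.09 at both. Without the GC-leaning libraries r was 0.16 and 0.13, and 35 and 34 of the 47 lay above 0. Those libraries were picked by their GC lean in these same counts. A weaker slope without them, and many turned signs, were thus largely set by that choice. Signs turned without them for 31 and 28 of the 47 at the low and high rates, 23 and 23 of these from below to above 0. The widest turn at the low rate was that of Taldo1, transaldolase, with -0.81 with all libraries and 0.63 without them.

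**Figure D5:**
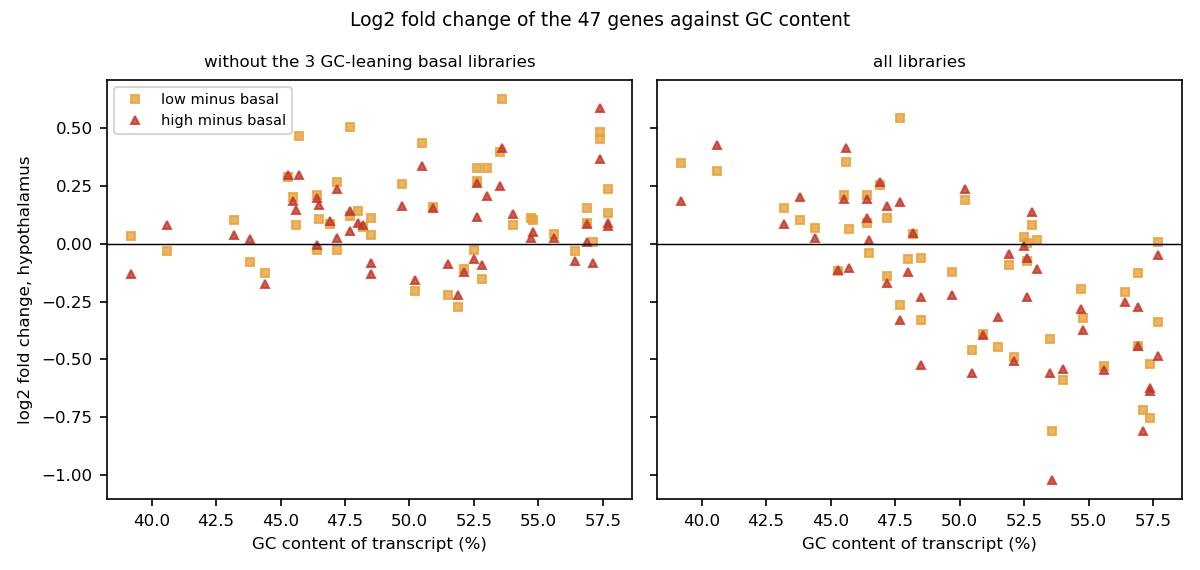
Log2 fold change against basal in the hypothalamus (y axis) of each of the 47 genes by the GC content of its transcript (x axis, percent), at the low and high rates, without the 3 GC-leaning basal libraries (left) and with all libraries (right). The slope on the right (r of -0.68) is not seen on the left (0.16 and 0.13). The libraries left out were picked by their GC lean in these same counts, which largely sets this difference.

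In the hypothalamus summed neuronal markers (5 of 5 detected) ran from 3551 to 4833 CPM in low and 3302 to 4344 CPM in high libraries. The basal libraries had 2795 to 3483 CPM. Astrocyte markers (6 of 6) ran from 2898 to 3974 CPM and 3264 to 3765 CPM, against 2058 to 3349 CPM. Hypothalamic markers (6 of 6) ran from 46.6 to 1309 CPM and 120.3 to 1058 CPM, against 869 to 1681 CPM. The part of these differences in the results was not tested, beyond leaving out the libraries that lack peptide genes, after which Gpi1 stood at -0.61 and -0.52 at the low and high rates with no call.

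In the hippocampus 0 of the 47 and 0% of the 13515 genes tested were called for low or high against basal, or for high against low, by edgeR's quasi-likelihood test, and 0 of the 47 by DESeq2; at an unadjusted p under 0.05 stood 0, 0 and 0 of the 47, against 6.05%, 2.61% and 2.84% of all genes. The hippocampal genes with the smallest p at the low rate were Suclg2 (0.28 (SE 0.17)), Idh1 (0.22 (SE 0.14)) and Tkt (0.43 (SE 0.28)) above 0 and Sucla2 (-0.14 (SE 0.10)), Dlat (-0.16 (SE 0.13)) and Pfkfb3 (-0.18 (SE 0.16)) below it. At the high rate they were Idh1 (0.25 (SE 0.14)), Tkt (0.17 (SE 0.28)) and Tpi1 (0.15 (SE 0.24)), and Dlat (-0.16 (SE 0.13)), Ldha (-0.17 (SE 0.15)) and Sucla2 (-0.09 (SE 0.10)). Summed oligodendrocyte markers ran from 5508 to 18281 CPM in low and 4991 to 7017 CPM in high hippocampal libraries. Both lay wholly above the basal range of 2497 to 4674 CPM. The part of this difference in the hippocampal results was not tested. In the nucleus accumbens 0 of the 47 and 0% of the 13769 genes tested were called for low or high against basal, or for high against low, by edgeR's quasi-likelihood test, and 0 of the 47 by DESeq2; at an unadjusted p under 0.05 stood 0, 1 and 0 of the 47, against 1.42%, 2.37% and 2.12% of all genes. In the nucleus accumbens the smallest p at the high rate was that of Mdh2, the mitochondrial malate dehydrogenase (0.26 (SE 0.11), unadjusted p = 0.0304, adjusted 1, edgeR's quasi-likelihood test), then Ldhb (0.23 (SE 0.11)) and Tpi1 (0.29 (SE 0.15)), and Pdk1 (-0.19 (SE 0.11)), Pfkfb3 (-0.09 (SE 0.11)) and Pfkfb2 (-0.12 (SE 0.15)) below 0. At the low rate they were Pdhb (0.21 (SE 0.12)), Pgd (0.26 (SE 0.16)) and Sucla2 (0.16 (SE 0.13)), and Pgam1 (-0.22 (SE 0.15)), G6pdx (-0.21 (SE 0.17)) and Pfkfb2 (-0.18 (SE 0.15)).

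Whether insulin acted differently between regions was tested as the interaction of region and infusion, in 6 contrasts. In each, 0 of the 47 and 0% of the 14985 genes were called (edgeR's quasi-likelihood test). DESeq2 also called 0 of the 47. In edgeR 0 to 13 of the 47 had an unadjusted p under 0.05, against 2.38% to 24.3% of all genes. The 13 (27.7%, against 18.8% of all genes) were for high minus basal, nucleus accumbens minus hypothalamus, 12 of them above 0. The matching share of all genes above 0 is not given here. Of the 5 basal hypothalamic libraries in this contrast, 3 were GC-leaning. Leaving out 1 library at a time gave a call for low minus basal, hypothalamus minus hippocampus, in 2 cases. They were Idh2 (-0.99, adjusted p = 0.0485) without basal library 4 of the hypothalamus and Tkt (-1.28, adjusted p = 0.0498) without basal library 1 of the hippocampus (edgeR's quasi-likelihood test). The difference of Gpi1 from basal in the hypothalamus was therefore not shown to differ from that in the other regions. Of 64 neighbouring genes (transporters, further isozymes, shuttles and regulators), 53 were measured in the hypothalamus and 2 were called at the low rate, where 5.38% of all genes were: Pgm2l1 (a log2 fold change of 0.91) was higher, and Eno3, the muscle enolase (-0.79), was lower. No neighbouring gene was called in another infusion contrast (edgeR's quasi-likelihood test). Between regions in basal mice, 16 of 56 were higher and 11 lower in the hypothalamus than in the hippocampus (24.4% and 21.6% of all genes), led by Eno3 (1.39) and by Hkdc1 (-2.65) and Gpd1 (-2.44), the cytosolic glycerol-phosphate dehydrogenase. The counts were 5 and 8 higher and lower between nucleus accumbens and hippocampus (14.7% and 14.5% of all genes), and 5 and 12 between nucleus accumbens and hypothalamus (14.7% and 17.3%).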

How the data were processed

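RNA of 52 libraries was sequenced from stranded preparations, per the labels. The values are read counts per gene, which the authors deposited as 1 table without normalisation; STAR, featureCounts and build GRCm38.p4 are named in the submitters' processing notes, with no version, option or strand setting given in the sources used here. All value columns were used (0 left out). Gene names and coordinates came from GENCODE M21. Within groups, 125 pairs of libraries were compared by chi-square over genes and 0 agreed within sampling noise.

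Each region was fitted alone for infusion, and all libraries together for regions and interactions, in edgeR 4.0.16 (R 4.3.3, limma 3.58.1) with TMM, filterByExpr and a robust quasi-likelihood fit; adjusted p-values (Benjamini-Hochberg) under 0.05 are called. All 47 genes passed the filter in every fit. Shares of isozymes were tested by exact permutation. The steps were tested on simulated data. The members and lists were chosen with earlier results of these data known. Full values are given for called genes, for the 3 higher and 3 lower of smallest p where fewer than 3 were called, for the 5 and 5 of largest change between regions, and as group means for 18 core genes. Alternatives were DESeq2 1.42.0, its size factors, no filter, tag run or range as a batch term, GC lean as a covariate, all libraries in 1 fit, and leaving out GC-leaning, peptide-lacking or single libraries; principal transcript lengths were added after seeing the data. A further neighbouring gene was left out of the list and is not reported here.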

Additional observations from a re-analysis of the deposited data

Results flagged for a closer look

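Each of 19 genes was checked in each group of libraries, 171 checks in all. In 25 of them 1 library stood far from the rest of its group in CPM (a gap to its nearest neighbour above Dixon's critical value). Chance flags about 1 in 20 independent checks. These checks share libraries, so the share flagged cannot be read against that figure. In high library 1 of the hippocampus (GC-leaning) this held for Gapdh at 929 CPM (others 433 to 602), Eno1 at 364 CPM (others 119.5 to 199), Eno2 at 1380.1 CPM (others 734 to 971), Tkt at 137 CPM (others 54.1 to 71.0), Cs at 329.5 CPM (others 246 to 272) and Idh2 at 87.1 CPM (others 36.5 to 53.2). In basal library 1 of the hippocampus (GC-leaning) this held for Hk1 at 502 CPM (others 306 to 376), Gapdh at 948 CPM (others 446 to 623), Eno2 at 1322 CPM (others 682 to 846) and Tkt at 116 CPM (others 46.2 to 64.5). In low library 1 of the hypothalamus this held for Pfkfb3 at 45.3 CPM (others 68.7 to 81.6), Gapdh at 769 CPM (others 497 to 566), Tkt at 161 CPM (others 87.7 to 111) and Idh2 at 76.3 CPM (others 45.3 to 54.9). In low library 5 of the hippocampus this held for Ldha at 264 CPM (others 140.1 to 179), Ldhb at 694 CPM (others 370.3 to 462) and Idh2 at 110.2 CPM (others 41.3 to 66.7). In basal library 5 of the hypothalamus (GC-leaning) this held for Hk2 at 5.63 CPM (others 10.3 to 12.1) and Ogdh at 280.1 CPM (others 370.2 to 403). In basal library 3 of the hypothalamus it was Pcx at 82.1 CPM (others 101 to 105). In high library 1 of the hypothalamus it was Hk1 at 234 CPM (others 279.6 to 297). In low library 2 of the hypothalamus it was Pdha1 at 178 CPM (others 115 to 137). In basal library 4 of the nucleus accumbens it was G6pdx at 19.1 CPM (others 28.5 to 32.6). In low library 1 of the nucleus accumbens (GC-leaning) it was Eno2 at 1206 CPM (others 749 to 887). In low library 2 of the nucleus accumbens it was Cs at 203 CPM (others 246 to 268).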

How the results depend on the processing

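The count of genes called in the hypothalamus at the low rate, 1, became 3 with DESeq2, 2 with DESeq2 size factors in edgeR and 2 with all 52 libraries in 1 fit, and 0 with tag run or tag range as a batch term, without GC-leaning libraries, with GC lean as a covariate, and without peptide-lacking libraries. At the high rate DESeq2 called 2 in place of 0. The shares of all genes called under these alternatives are not given here. Without GC-leaning libraries the basal calls were 8 for hypothalamus minus hippocampus and 2 for nucleus accumbens minus hypothalamus, and 6 isozyme shares passed, all between nucleus accumbens and hippocampus (6 of 6). With 2 basal hypothalamic libraries left, no share in the other region contrasts could have p below 0.0357, so the loss of those 7 calls says nothing of stability. With 1 library left out the counts ran from 0 to 9 (hypothalamus, low), 0 to 6 (hypothalamus, high), 15 to 26 (hypothalamus minus hippocampus), 10 to 12 (nucleus accumbens minus hippocampus), 7 to 16 (nucleus accumbens minus hypothalamus, with 15 and 16 without basal library 3 and 4 of the hypothalamus), 0 to 1 (interaction: Idh2 without basal library 4 of the hypothalamus, Tkt without basal library 1 of the hippocampus) and 9 to 14 (shares between regions); the other infusion contrasts and the shares by infusion stayed at 0. Without GC-leaning libraries signs turned for 31 of the 47 genes in the hypothalamus at the low rate and 28 at the high rate, among those described singly Pfkl at the low rate (0.008) and Idh2 at the high rate (0.0252). They also turned for Tpi1 between nucleus accumbens and hypothalamus without them (0.199), and for Ldha (-0.0438) and Dld (-0.0902) between the rates without peptide-lacking libraries. Leaving out 1 library gave -0.0824 to 0.385 for Tkt and -0.0688 to 0.276 for Tpi1 in the hippocampus at the high rate (both negative without high library 1), and -0.0124 to 0.223 for Sucla2 in the nucleus accumbens at the low rate (negative without low library 2). The cause was not tested. No paired analysis was possible because the labels give no replicate numbers and tie no library to an animal; runs of tag numbers in the titles, which hold most groups once, were fitted as a batch term instead. Depth limits mainly Hk2, Suclg2, Rpia and Pgls, with under 20 reads in their lowest library.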
